A study of Mus musculus with 6 samples.

Results

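Potassium channels let K+ ions leave or enter cells along their electrochemical gradient and set the resting membrane potential. Their pore subunits fall into families: voltage-gated (Kv) alpha subunits, silent Kv modifiers that join other alpha subunits, channels opened by intracellular calcium or sodium, inward rectifiers (Kir), and K2P leak channels, which carry a pair of pore loops in each subunit. Auxiliary proteins such as the KChIP calcium sensors (Kcnip genes), the Kv beta subunits (Kcnab genes) and the beta subunits of the large-conductance BK channel (Kcnmb genes) change how the pores open or reach the membrane. The members described here are the protein-coding genes of the table whose symbol begins with Kcn, with the Kctd genes left out. There were 93 such genes among 20157 protein-coding genes and 40166 genes in all, and 46 of them had more than 3 counts in at least 1 tumor.

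Bulk RNA was sequenced from YUMM3.3 tumors, a *Braf*-mutant mouse melanoma line grown under the skin of C57BL/6 mice that were 8 to 10 weeks old when tumors were set. In the RGS group, 3 tumors came from mice given rigosertib (RGS) by oral gavage at 300 mg/kg, and in the vehicle group 3 tumors came from mice given H2O, all taken after 17 days of treatment on 5 days a week. RGS is described as a small-molecule RAS mimetic. All 6 tumors derive from a single cell line, and a tumor sample pools tumor, stromal and immune cells, so that fewer cells of a type and less RNA per cell cannot be told apart. Tumors are named by group and by the number in their sample label, vehicle 7 to 9 and RGS 10 to 12.

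The comparison asked which potassium channel genes differed between RGS-treated and vehicle-treated tumors. Of the 31 members that passed the filter on low counts, 6 rose and 3 fell with RGS by edgeR's quasi-likelihood test (adjusted p under 0.05), which is 29.0% of them. The same threshold was passed by 32.8% of all 15355 tested genes, 16.3% being higher and 16.5% lower, so the share of changed members was near that background. The higher genes were *Kcnn4*, *Kcnh2*, *Kcnj12*, *Kcnk6*, *Kcnmb3* and *Kcnmb4*, and the lower ones *Kcnip1*, *Kcnk2* and *Kcnip4*. The calls for *Kcnip1*, *Kcnn4* and *Kcnj12* held in all 14 alternative fits, whereas each of the other 6 lost the threshold in at least 4 of its alternative fits. With an added limit of 1 on the absolute log2 fold change, 4 members were higher and 2 lower, and *Kcnn4*, *Kcnh2* and *Kcnk2* were under it. The median log2 fold change was 0.39 over the 31 members and -0.05 over all tested genes. The groups did not overlap for 16 members (51.6%), beside 45.8% of all tested genes.

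Library totals ranged from 13837932 to 32555494 counts. The 3 vehicle libraries were the deepest, so that an effect of depth and one of treatment cannot be told apart. Levels are given as CPM, the counts of a gene scaled to a common library size with TMM factors. The floor, 3 counts in a library, lay between 0.0856 and 0.226 CPM and covers counting error only. Mitochondrial genes took from 2.13% to 3.2% of counts in vehicle and from 5.6% to 8.22% in RGS tumors. Ribosomal protein genes took from 5.54% to 10% in vehicle and from 3.08% to 3.61% in RGS tumors. With all libraries thinned to the smallest the members past the threshold numbered 6 higher and 1 lower, and with mitochondrial and ribosomal protein genes left out 6 and 3. The 6 higher after thinning were not the same genes: *Kcnq5* was among them, while *Kcnmb3* was not tested in that setting, where 27 members passed the filter on low counts. *Kcnk2* and *Kcnip4* were tested after thinning and did not pass. Melanocytic markers were low in all tumors: *Tyr*, *Dct*, *Mlana*, *Slc45a2* and *Oca2* had no count in any, and the 10 markers together summed to between 5.38 and 11.8 CPM. *Tyrp1* had 2 counts and *Sox10* had 18, both in RGS 11 alone, while *Mitf*, *Ednrb* and *Pmel* passed the filter. Several pigment genes of melanocytes were thus not detected in these counts.

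The selectivity filter, the stretch of the pore that lets K+ but not Na+ pass, is encoded by 5 codons in each pore loop. These codons are shown for 4 pore-forming members past the threshold, to make visible how the filter differs between their families. Each line gives 45 bases of coding sequence, 5′ to 3′ on the coding strand, from the GENCODE M21 transcript with the longest coding sequence, with the filter codons in capitals. All positions are in GRCm38.
Kcnn4 (chr7:24379198-24379212, plus strand, exon 4 of 9): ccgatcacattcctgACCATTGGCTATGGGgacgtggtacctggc
Kcnh2 (chr5:24325555-24325569, minus strand, exon 7 of 15): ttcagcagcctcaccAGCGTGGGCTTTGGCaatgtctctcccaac
Kcnk2, first pore loop (minus strand of chromosome 1, codons split between exons 3 and 4 of 7): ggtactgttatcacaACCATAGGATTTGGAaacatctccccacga
Kcnk2, other pore loop (chr1:189256581-189256595, minus strand, exon 5 of 7): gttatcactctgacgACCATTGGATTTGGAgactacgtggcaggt
Kcnk6, first pore loop (minus strand of chromosome 7, codons split between exons 1 and 2 of 3): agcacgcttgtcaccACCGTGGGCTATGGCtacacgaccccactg
Kcnk6, other pore loop (chr7:29225536-29225550, minus strand, exon 2 of 3): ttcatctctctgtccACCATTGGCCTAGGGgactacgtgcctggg
The capitals of *Kcnn4* read TIGYG as residues. *Kcnh2* reads SVGFG, both loops of *Kcnk2* read TIGFG, and *Kcnk6* reads TVGYG in its first loop and TIGLG in the other.

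The highest level per length in both groups was that of *Kcnn4*, which encodes the intermediate-conductance calcium-activated channel (KCa3.1 or IK), a channel of lymphocytes, erythrocytes and epithelia. On the RPKM scale (CPM per kilobase of gene length), vehicle tumors had 18.7 ± 2.48 (SD, n = 3) for *Kcnn4*. Next came the Kv beta subunit *Kcnab3* with 10.1 ± 0.503, *Kcnh2* with 7.05 ± 0.691, *Kcnk2* with 4.2 ± 0.594 and the Kv modifier *Kcnf1* with 2 ± 0.453 RPKM (SD, n = 3 each). Each of these lay above the next in every vehicle tumor. From *Kcnip1* (1.08 ± 0.148) to *Kcna3* (0.979 ± 0.273) and *Kcnd1* (0.721 ± 0.221) the ranges of neighbours overlapped. In RGS tumors *Kcnn4* led at 34.2 ± 4.59 RPKM, followed by *Kcnab3* (12.1 ± 3.77) and *Kcnh2* (10.6 ± 2.42), whose ranges overlapped, then *Kcnf1* (2.64 ± 1.34) and *Kcnk2* (2.54 ± 0.095), which overlapped as well. All other members were below 2 RPKM on average in both groups.

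**Figure D1:**
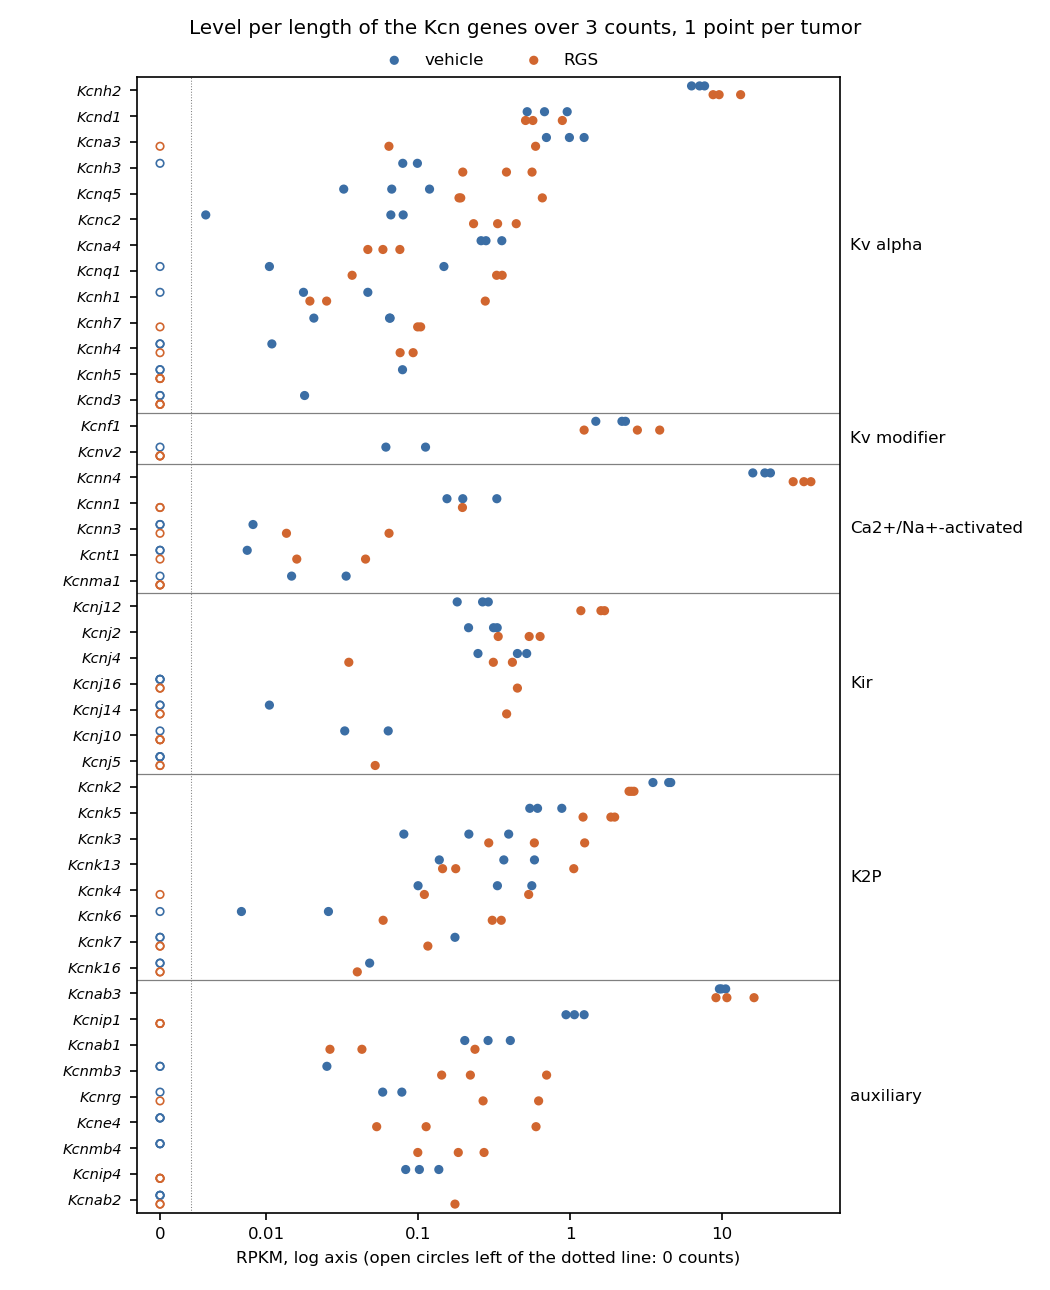
Level per length (RPKM, log axis) of 44 of the members over 3 counts in at least 1 tumor, 1 point per tumor, grouped by family; open circles left of the dotted line are tumors with 0 counts. *Kcnn4*, *Kcnab3* and *Kcnh2* stand above all others in every tumor, and 12 members were over 3 counts in all 6 tumors.

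Summed over all members, the level was 48.9 ± 3.41 RPKM in vehicle and 71.9 ± 4.58 RPKM in RGS tumors (SD, n = 3 each). *Kcnn4* made up between 35.2% and 39.9% of this sum in vehicle tumors and between 41.6% and 51% in RGS tumors. The calcium- or sodium-activated channels summed to 19 ± 2.55 and 34.4 ± 4.5 RPKM, the Kv alpha subunits to 9.43 ± 0.661 and 13.1 ± 2.81, and the inward rectifiers to 0.982 ± 0.202 and 2.54 ± 0.616 in vehicle and RGS tumors (SD, n = 3 each). For these 3 families every RGS tumor was above every vehicle tumor, but single genes carried most of each rise. Among Kv alpha subunits *Kcnh2* had means of 7.05 and 10.6 RPKM, and among inward rectifiers *Kcnj12* had 0.246 and 1.49 RPKM. Of the 9 tested Kv alpha genes 3 had a negative log2 fold change, as had 2 of the 4 tested inward rectifiers. K2P channels (5.03 to 6.41 RPKM in vehicle and 4.82 to 6.88 RPKM in RGS tumors), Kv modifiers (2.06 ± 0.501 and 2.64 ± 1.34) and auxiliary proteins (11.6 ± 0.494 and 13.4 ± 3.78) overlapped between the groups. These sums are descriptions with no test.

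**Figure D2:**
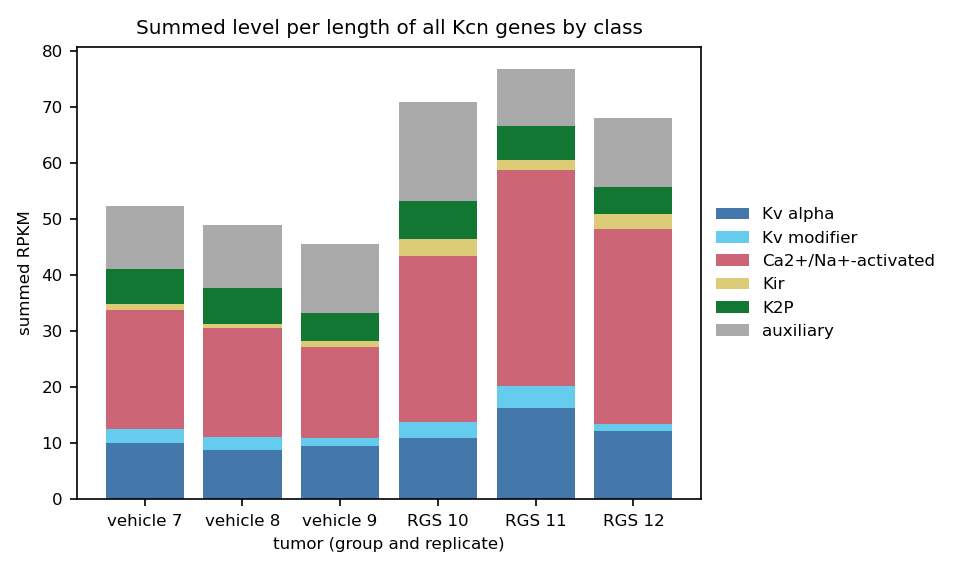
Summed level per length (RPKM) of all 93 members in each tumor, stacked by family, with vehicle tumors 7 to 9 on the left and RGS tumors 10 to 12 on the right. The calcium- or sodium-activated part, nearly all of it *Kcnn4*, is at most 21.3 RPKM in a vehicle tumor and at least 29.7 RPKM in an RGS tumor.

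Among the pore subunits opened by calcium or sodium, *Kcnn4* (chromosome 7, 24370263 to 24386690) was measured at 107, 98.2 and 82 CPM in vehicle tumors and at 151, 198 and 177 CPM in RGS tumors. All RGS tumors were above all vehicle tumors, with no overlap. It was 1.83-fold higher (log2 fold change 0.87, standard error 0.16, adjusted p = 4.7e-04 by edgeR), and from 0.73 to 0.97 on the log2 scale over the alternatives, with an adjusted p of at most 0.00651. The small-conductance channel *Kcnn1* had 53, 20 and 21 counts in vehicle and 19, 0 and 0 in RGS tumors and did not pass (log2 fold change -1.73, standard error 1.44, adjusted p = 0.388). Without RGS 10, the only RGS tumor with counts of it, its adjusted p was 0.0356. *Kcnma1*, the pore of the BK channel, had 20, 7 and 0 counts in vehicle tumors and none in any RGS tumor (adjusted p = 0.0901). *Kcnn3* and *Kcnt1* reached 11 and 7 counts in RGS 12 and were not tested, and *Kcnn2*, *Kcnt2* and *Kcnu1* had no count.

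Beta subunits of the BK channel, which tune its calcium and voltage sensitivity, included a pair of genes past the threshold. In vehicle tumors *Kcnmb4* was without a count, and in RGS tumors it had 7, 12 and 10, at least 4.77-fold higher when set against 3 counts in the shallowest vehicle library. Its adjusted p was 0.0165 by edgeR. *Kcnmb3* had 0, 0 and 1 counts in vehicle and 8, 16 and 4 in RGS tumors (adjusted p = 0.0417 by edgeR). The ratio of its summed counts was 47.7, with a 95% counting interval from 7.88 to 1949 (exact binomial, depth-scaled). That interval covers counting error only and leaves out the spread between tumors. For both genes each RGS tumor was above each vehicle tumor, but the values sat close to the floor. Both lost the threshold when any of the 6 tumors was left out, with adjusted p up to 0.123 for *Kcnmb4* and 0.257 for *Kcnmb3*. *Kcnmb1* had no count and *Kcnmb2* had 1. Exons of *Kcnmb4* share 20.8% of their bases with the antisense gene *Kcnmb4os2*, which had 1 count in all.

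*Kcnip1* showed the largest fitted change of any member. It encodes KChIP1, an EF-hand calcium sensor that binds Kv4 channels, and lies on chromosome 11 from 33629339 to 33993152. Vehicle tumors had 269, 164 and 154 counts, or 7.67, 5.84 and 6.62 CPM, and none of the 3 RGS tumors had a count. Against 3 counts in the shallowest RGS library it was at least 29.7-fold lower with RGS (adjusted p = 2.41e-06 by edgeR, at most 4.63e-05 under any alternative). *Kcnip4*, another KChIP gene (chromosome 5, 48389502 to 49524907), followed the same split at a much lower level, with 13, 14 and 7 counts in vehicle and none in RGS tumors. It was at least 1.73-fold lower (adjusted p = 0.0433 by edgeR) and lost the threshold when any tumor was left out, with thinned counts, without a filter on low counts and with DESeq2 (adjusted p up to 0.22). The opposite-strand gene *5730480H06Rik* shares 4.63% of the exon bases of *Kcnip4* and had 136 to 401 counts per tumor.

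The Kv4 pores to which KChIP proteins bind (*Kcnd1* to *Kcnd3*) gave no call. *Kcnd1* was the only Kv4 gene over 3 counts in more than 1 tumor, with 2.77, 3.6 and 5.07 CPM in vehicle and 2.7, 3.01 and 4.71 CPM in RGS tumors, which overlapped throughout (log2 fold change -0.13, standard error 0.53, adjusted p = 0.873). *Kcnd3* had 6 counts in vehicle 7 alone and *Kcnd2* had none. *Kcnip2* reached 3 counts in a single tumor and *Kcnip3* had none, so that in RGS tumors no KChIP gene was over the floor.

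**Figure D3:**
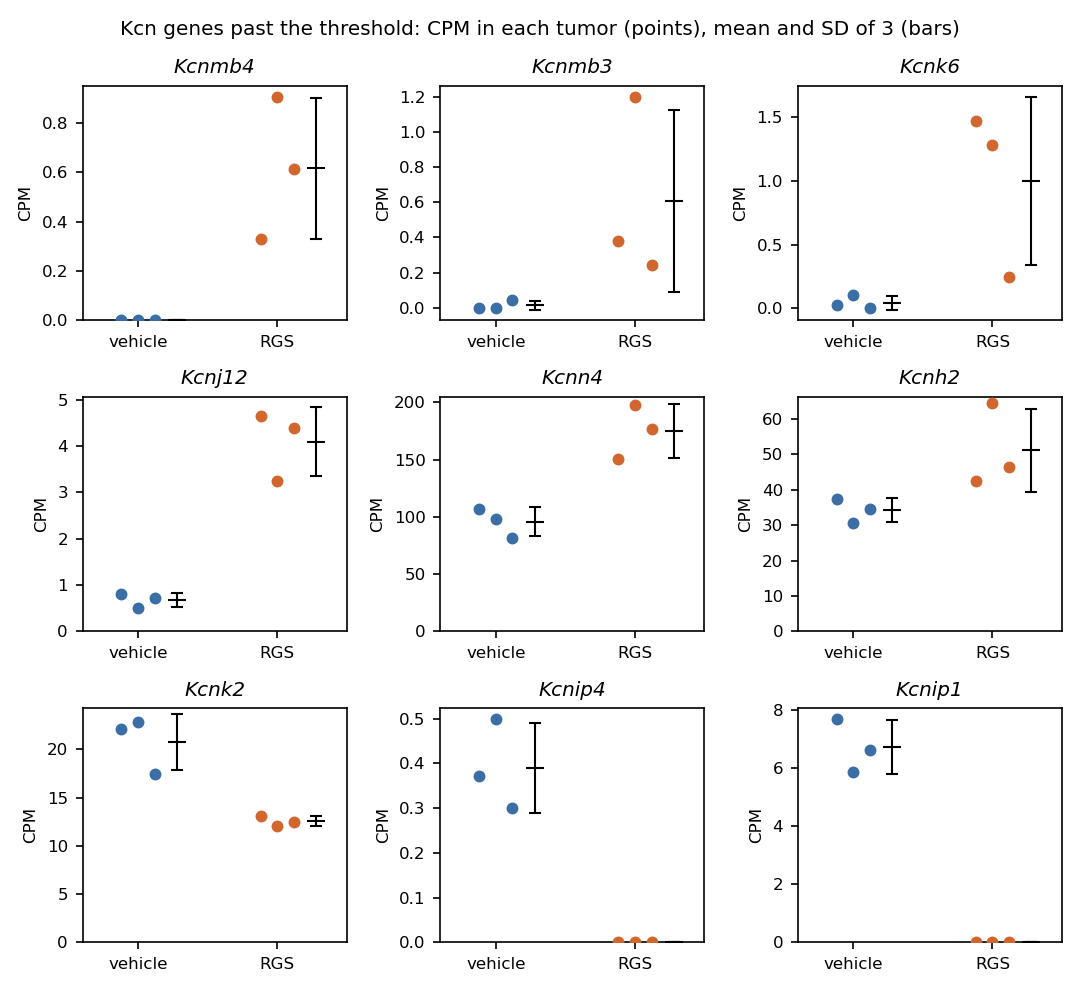
CPM in each tumor (points) with mean and SD of 3 tumors (bars) for the 9 members past the threshold, ordered by fitted log2 fold change. *Kcnip1* and *Kcnip4* are at 0 in all RGS tumors, *Kcnmb4* is at 0 in all vehicle tumors, and *Kcnn4*, *Kcnh2* and *Kcnk2* differ by less than 2-fold at levels over 10 CPM.

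The remaining auxiliary genes did not pass the threshold. *Kcnab3* was even across tumors apart from RGS 10, at 27.6, 28.5 and 30.4 CPM in vehicle and 46.8, 26.2 and 30.8 CPM in RGS tumors (log2 fold change 0.27, adjusted p = 0.388). *Kcnab1*, another Kv beta subunit, had 2.48, 1.75 and 3.48 CPM in vehicle and 2.03, 0.226 and 0.367 CPM in RGS tumors (adjusted p = 0.212). Without RGS 10, which overlapped the vehicle tumors, its log2 fold change was -3.08 with an adjusted p = 0.0306. *Kcnrg*, a suppressor of Kv channel assembly, had 5, 3 and 0 counts in vehicle and 24, 0 and 8 in RGS tumors (adjusted p = 0.246). *Kcne4* (3, 4 and 26 counts) and *Kcnab2* (16 counts in RGS 12) were seen in RGS tumors only and were not tested.

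Among inward rectifiers, *Kcnj12* (Kir2.2, chromosome 11, 61022564 to 61071131) was at 0.799, 0.499 and 0.731 CPM in vehicle tumors and 4.64, 3.24 and 4.4 CPM in RGS tumors. Kir2 channels hold the resting potential near the potassium equilibrium in muscle and other excitable cells. The groups did not overlap, with a 6.01-fold higher level in RGS tumors (log2 fold change 2.59, standard error 0.70, adjusted p = 0.00763 by edgeR, at most 0.0361 under any alternative). Its relative *Kcnj2* (Kir2.1) had 1.17, 1.71 and 1.8 CPM in vehicle and 2.93, 3.46 and 1.83 CPM in RGS tumors, all RGS values being above the vehicle values but within the error of the fit (log2 fold change 0.81, standard error 0.70, adjusted p = 0.406). *Kcnj4* (Kir2.3) overlapped between the groups, with 34, 15 and 26 counts in vehicle and 19, 1 and 11 in RGS tumors (adjusted p = 0.723). *Kcnj10* had 0, 5 and 8 counts in vehicle and none in RGS tumors (adjusted p = 0.147), while *Kcnj16*, which can pair with it, had 29 counts in RGS 12 and none elsewhere. *Kcnj14* had 22 counts in RGS 10 and 1 in a vehicle tumor, and *Kcnj5* had 4 counts in RGS 12. The pore genes of ATP-sensitive channels were near or at 0: *Kcnj8* had no count and *Kcnj11* had 3, in vehicle 7.

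Skeletal muscle, a tissue rich in Kir2 channels, was checked by 10 markers, which summed to between 6.59 and 12 CPM in vehicle and between 5.35 and 8.44 CPM in RGS tumors, and *Ckm*, *Myh1*, *Myh4*, *Myl1* and *Pvalb* had no count in any tumor. The sums overlapped between the groups, and the 3 muscle markers that passed the filter had adjusted p from 0.362 to 0.82 by edgeR. Of these, *Tnnt3* had every RGS tumor below every vehicle tumor without passing. The part of muscle cells in the Kir2 values was not tested.

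The K2P channels gave 1 higher and 1 lower gene among 6 tested. *Kcnk2* (TREK1, a mechanosensitive leak channel, chromosome 1, 189207930 to 189402273) was at 22.1, 22.8 and 17.4 CPM in vehicle and 13.1, 12.1 and 12.5 CPM in RGS tumors. No value overlapped, and the 3 RGS tumors were within 1 CPM of each other. It was 1.65-fold lower (log2 fold change -0.72, standard error 0.24, adjusted p = 0.0289 by edgeR), but lost the threshold without vehicle 7, vehicle 8 or RGS 11 and with thinned counts (adjusted p up to 0.165). *Kcnk6* (TWIK2) had 1, 3 and 0 counts in vehicle and 31, 17 and 4 in RGS tumors. The ratio of its summed counts was 22.1, with a 95% counting interval from 8.14 to 84.2 that leaves out the spread between tumors. Its call (adjusted p = 0.0462 by edgeR) was lost when any tumor was left out. *Kcnk5* (TASK2, an alkaline-activated leak channel) was at 2.08, 1.85 and 3.01 CPM in vehicle and 6.72, 6.32 and 4.16 CPM in RGS tumors. Its groups did not overlap, yet its adjusted p = 0.0525 by edgeR missed the threshold (log2 fold change 1.31, standard error 0.50) that DESeq2 passed (adjusted p = 0.0213). *Kcnk3* (TASK1) overlapped, with 1.57, 0.321 and 0.859 CPM in vehicle and 2.32, 4.97 and 1.16 CPM in RGS tumors (adjusted p = 0.168), as did *Kcnk13* (adjusted p = 0.822) and *Kcnk4* (adjusted p = 0.785). *Kcnk7* and *Kcnk16* had at most 5 counts and were not tested.

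Of the 30 Kv alpha subunit genes, 15 were over 3 counts in a tumor, 9 were tested and 1 passed. *Kcnh2*, the mouse gene of the ERG potassium channel known for cardiac repolarisation (chromosome 5, 24319589 to 24351604), was at 37.3, 30.6 and 34.6 CPM in vehicle and 42.4, 64.5 and 46.5 CPM in RGS tumors. The lowest RGS tumor was above the highest vehicle tumor, and RGS 11 was highest. The change was 1.49-fold (log2 fold change 0.58, standard error 0.20, adjusted p = 0.0309 by edgeR). It lost the threshold without vehicle 8, vehicle 9 or RGS 11 and with library size as the only scaling (adjusted p up to 0.219).

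None of the other 8 tested Kv alpha genes passed by edgeR in the main fit, and *Kcnc2*, *Kcnq5* and *Kcnh3* did by DESeq2. *Kcnq5* also passed by edgeR with thinned counts and without RGS 11. With *Kcnh2* included, 4 of the 9 had an unadjusted p under 0.05, beside 6592 of all 15355 tested genes, a similar share. *Kcnc2* (Kv3.2, of fast-spiking neurons) had 1, 16 and 11 counts in vehicle and 35, 42 and 39 in RGS tumors (log2 fold change 2.74, standard error 1.08, adjusted p = 0.0592 by edgeR and 0.0125 by DESeq2). *Kcnq5* (Kv7.5, an M-current subunit) had 32, 7 and 12 counts in vehicle and 107, 19 and 24 in RGS tumors. After scaling its groups did not overlap, at 0.249 to 0.913 CPM against 1.43 to 5.06 CPM (adjusted p = 0.0731 by edgeR and 0.0248 by DESeq2). *Kcnh3* had 16, 16 and 0 counts in vehicle and 24, 43 and 36 in RGS tumors (adjusted p = 0.092 by edgeR and 0.0287 by DESeq2). *Kcnq1* (adjusted p = 0.305) and *Kcnh7* (adjusted p = 0.818) overlapped between the groups. Exons of *Kcnq1* share 2.96% of their bases with the antisense transcript *Kcnq1ot1*, and those of *Kcnh7* 4.57% with *Gca*.

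Of the Shaker-type (Kcna) genes, *Kcna3* and *Kcna4* were tested and neither passed, while *Kcna7* had 1 count and the others none. *Kcna4* (Kv1.4) had 1.26, 1.35 and 1.72 CPM in vehicle and 0.284, 0.226 and 0.367 CPM in RGS tumors, which is 6, 3 and 6 counts in the latter. Its groups did not overlap, and the fit gave an adjusted p = 0.123 (log2 fold change -2.28, standard error 1.11), and no alternative called it (adjusted p from 0.0557 to 0.329). *Kcna3* (Kv1.3, the main Kv channel of T cells) had 83, 53 and 31 counts in vehicle and 0, 15 and 2 in RGS tumors (adjusted p = 0.184). Without RGS 11 its log2 fold change was -4.93 (adjusted p = 0.0168). Of 9 protein-coding T and NK cell markers, *Cd3d*, *Cd3e*, *Cd3g*, *Cd2*, *Cd8a* and *Klrb1c* had no count. In vehicle 7 to 9 *Lck* was at 0.77, 1.96 and 3.01 CPM, and *Kcna3* at 2.37, 1.89 and 1.33 CPM. In RGS 10 to 12 *Lck* was at 0.757, 2.48 and 1.16 CPM, and *Kcna3* at 0, 1.13 and 0.122 CPM. *Cd4* had 14 counts in vehicle 9 alone and *Ncr1* had 2 in vehicle 8. The sum over the 9 ran from 0.77 to 3.61 CPM in vehicle and from 0.757 to 2.48 CPM in RGS tumors, and its part in the values of *Kcna3* was not tested. *Kcnh1*, *Kcnh4*, *Kcnh5* and *Kcnd3* had counts over the floor in 1 to 2 tumors and were not tested.

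The modifier genes, which form no channel alone, gave no call among 2 tested. *Kcnf1* (Kv5.1) was at 11.1, 10.5 and 7.09 CPM in vehicle and 13.3, 18.7 and 5.93 CPM in RGS tumors, so that RGS tumors held both the highest and the lowest value (adjusted p = 0.44). *Kcnv2* had 11, 16 and 0 counts in vehicle and none in RGS tumors (adjusted p = 0.0847). All 8 other modifier genes (the Kcng and Kcns genes and *Kcnv1*) had no count in any tumor.

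**Figure D4:**
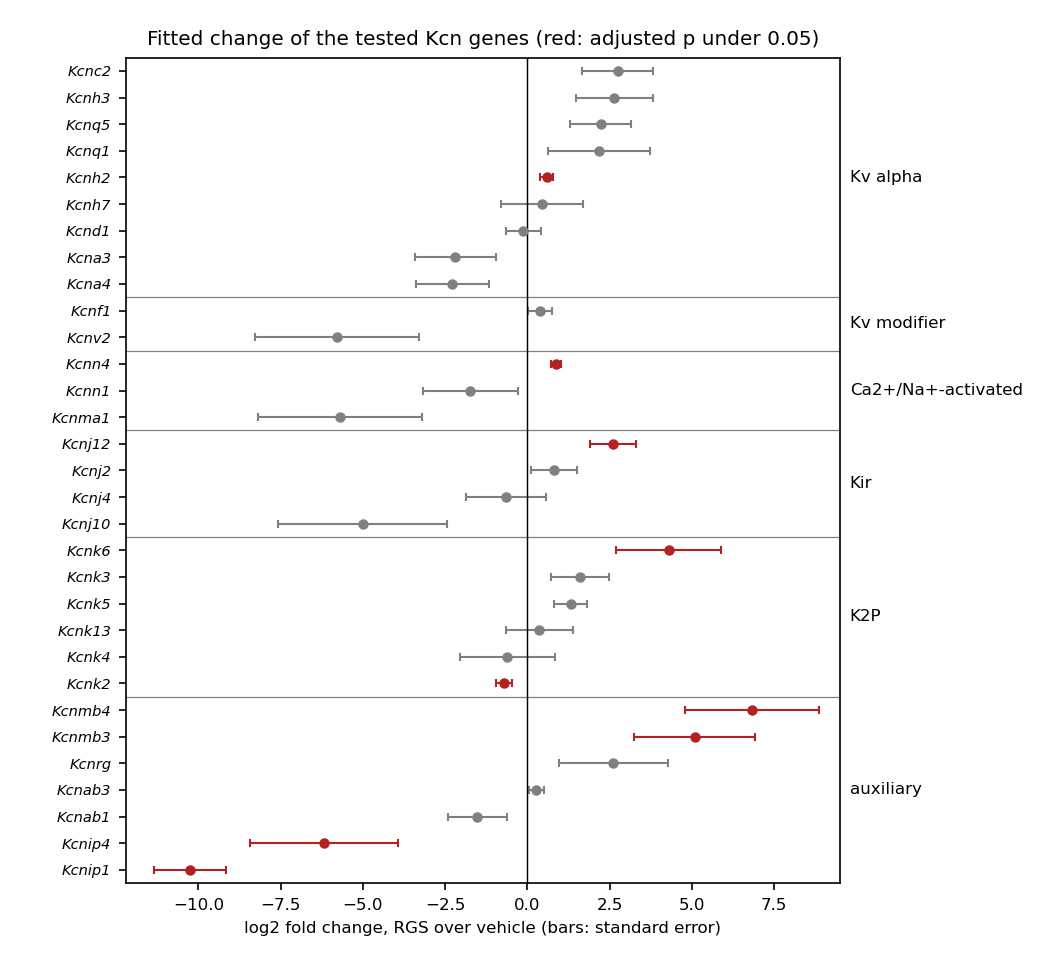
Fitted log2 fold change of RGS over vehicle with its standard error for the 31 tested members, grouped by family; red points passed an adjusted p under 0.05. Narrow bars belong to genes with many counts (*Kcnn4*, *Kcnh2*, *Kcnk2*, *Kcnab3*), and values beyond about 4 in size belong to genes near 0 in a group, for which the fitted value depends on the prior count.

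Of the 47 members not over the floor, 39 had no count in any tumor and 8 had 1 to 3 counts at most. Just over the floor were *Kcnj5* and *Kcnk16* with a maximum of 4 counts, and just outside it *Kcne2*, *Kcnip2* and *Kcnj11* with 3. Among protein-coding genes as a whole, 71.8% were over 3 counts in a tumor, compared with 49.5% of the members. By family the share was 62.5% for calcium- or sodium-activated channels (5 of 8), 61.5% for K2P channels (8 of 13), 52.9% for auxiliary genes (9 of 17), 50% for Kv alpha subunits (15 of 30), 46.7% for inward rectifiers (7 of 15) and 20% for modifiers (2 of 10). Members over the floor in vehicle tumors alone numbered 10, in RGS tumors alone 11, and in both groups 25. For 11 of the 46 members a single tumor carried all counts over the floor, as for *Kcnj16*, *Kcnab2* and *Kcnh5*. At these depths 0 counts allow a level of up to 0.226 CPM in the shallowest library, so that such genes were not detectable, which is not the same as absent.

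Other genes that move potassium or bind its channels were compared from lists. Of all tested genes 32.8% passed the same threshold, and no list was tested against that share. Of 22 genes of potassium pumps and cotransporters, 14 were tested, 4 were higher and 1 lower (median log2 fold change 0.35). Among beta subunits of the sodium pump, which carry it to the membrane, *Atp1b1* was lower, at 5.93, 2.96 and 3.22 CPM in vehicle and 0.142, 0.828 and 0.122 CPM in RGS tumors (log2 fold change -3.52, adjusted p = 0.00429). *Atp1b3*, the more abundant beta subunit here, rose from 148 ± 10.8 to 202 ± 21.4 CPM (SD, n = 3 each, adjusted p = 0.0295). The K-Cl cotransporter *Slc12a4* had a log2 fold change of 0.60 (adjusted p = 0.00969), and its 3 RGS tumors, at 178 to 204 CPM, were all above the vehicle tumors, at 106 to 155 CPM.

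The list of accessory proteins, relatives and regulators without a Kcn name held 17 genes, of which 16 were found in the table. Of these, 9 were tested and 1 passed, a smaller share than the 32.8% of all tested genes. The gene that passed was *Amigo1*, a partner of Kv2 channels, at 34.9, 25.9 and 26.4 CPM in vehicle and 36, 49.6 and 49.4 CPM in RGS tumors (log2 fold change 0.63, adjusted p = 0.0241). RGS 10 was only just above vehicle 7, and the call was lost without vehicle 8, vehicle 9, RGS 11 or RGS 12. The Kv2 pore gene *Kcnb2* had no count. *Abcc9*, the regulatory subunit that pairs with *Kcnj8*, had no count either. Of 32 voltage-gated calcium and sodium channel genes, 13 were tested and 2 were higher, *Cacna1i* (log2 fold change 1.69, adjusted p = 0.00559) and *Cacna1c* (log2 fold change 1.42, adjusted p = 0.0315). That share too was below the one of all tested genes.

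**Figure D5:**
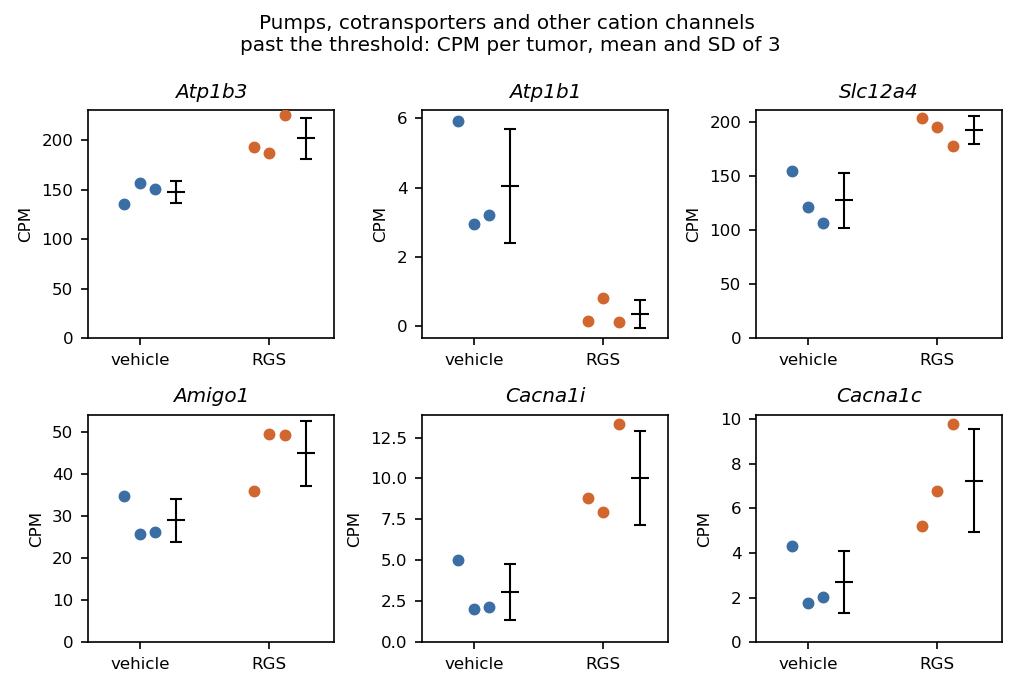
CPM in each tumor (points) with mean and SD of 3 tumors (bars) for 6 genes past the threshold in the lists of pumps and cotransporters, channel partners, and calcium and sodium channels. *Atp1b1* was the only gene of these 6 that was lower with RGS, and *Atp1b3* was at 136 to 157 CPM in vehicle and 187 to 226 CPM in RGS tumors.

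Sums over 10 markers of other cells differed between the groups for several types, and their part in these results was not tested. Macrophage markers summed to between 96.3 and 106 CPM in vehicle and between 119 and 156 CPM in RGS tumors, nearly all of it *Cd68*, *Mertk* and *Cd14*. Of these *Cd14* was called (6.13 ± 0.222 and 19.4 ± 2.66 CPM, SD, n = 3 each). The other macrophage markers were near or at 0: *Adgre1* and *Fcgr1* had no count, and *Csf1r* and *C1qb* had at most 1 in a tumor. *C1qa* and *Itgam* had at most 4 counts in a tumor and *Mrc1* at most 7. Schwann cell and neuron markers summed to between 38.3 and 44.4 CPM in vehicle and between 83.7 and 119 CPM in RGS tumors, mostly through *Tubb3* (29.8 ± 2.17 and 96.4 ± 19.6 CPM, SD, n = 3 each), with *Gfra3* and *Cdh19* at 0. Smooth muscle and pericyte markers had 3 genes higher and 5 lower of 8 tested, and their sum, between 245 and 330 CPM in vehicle and between 526 and 582 CPM in RGS tumors, was set by *Rgs5*, at 1.12 to 1.42 CPM and 368 to 423 CPM. Keratinocyte markers summed to at most 1.72 CPM in vehicle and at least 7.76 CPM in RGS tumors, mostly through *Ivl* (0 in vehicle and 5.87, 11.4 and 19.6 CPM in RGS tumors), with *Krt5*, *Krt14* and *Krt15* at 5 counts or fewer and *Trp63*, *Krt1*, *Dsg3* and *Dsc3* at 0. Adipocyte markers summed to between 26.2 and 28.4 CPM and between 68.6 and 85.3 CPM through *Lipe* (15 ± 2.96 and 65.5 ± 3.8 CPM, SD, n = 3 each). *Fabp4* overlapped, *Lpl* was at 2.8 ± 1.34 CPM in vehicle and 0.925 ± 0.149 CPM in RGS tumors (SD, n = 3 each) without overlap or a call (adjusted p = 0.132 by edgeR), and *Plin1*, *Lep*, *Retn* and *Cidea* were at 0. Fibroblast markers summed to between 397 and 584 CPM in vehicle and between 291 and 322 CPM in RGS tumors, mostly through *Col1a2* and *Pdgfra*, with *Lum* at 0. In that list *Col1a2*, *Pdgfra* and *Col3a1* were lower, *Dcn* was 9.44-fold higher (1.14 ± 0.495 and 10.7 ± 4.61 CPM, SD, n = 3 each, adjusted p = 6.23e-05 by edgeR), *Pi16* had every RGS tumor above every vehicle tumor without passing (adjusted p = 0.169), and *Col1a1* overlapped. The endothelial sum, mostly *Flt1*, overlapped at 33.5 to 56.7 and 37.7 to 42.6 CPM, with *Erg* and *Emcn* at 0. Within it *Cdh5* was 11.1-fold higher (0.555 ± 0.266 and 6.2 ± 3.78 CPM, SD, n = 3 each, adjusted p = 6.37e-04 by edgeR), and *Pecam1* (adjusted p = 0.351) and *Esam* (adjusted p = 0.164) had every RGS tumor above every vehicle tumor without passing. *Flt1* (log2 fold change -0.45, adjusted p = 0.11 by edgeR) and *Tek* (-1.88, adjusted p = 0.431) went the other way with overlap. *Kdr*, *Tie1* and *Cldn5* had at most 6 counts in a tumor and were not tested.

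Upstream sequence is shown for *Kcnn4*, *Kcnj12* and *Kcnip1*, the members whose calls held in all 14 alternative fits, as context for what lies before their starts. Promoters of 8 of the 9 called members were found in the RefSeq table (GRCm38.p6). Each run holds the 250 bases before an annotated start, 5′ to 3′ on the strand of the gene, and for *Kcnip1*, which has 3 annotated starts, the one farthest upstream. Capitals mark matches on either strand to TGANTCA of AP-1 factors, TGACGTCA of CREB, CACGTG or CATGTG of E-box factors such as MITF, GGGCGG of SP factors, or TATAAA of the TATA box.
Kcnn4 (chr7:24370013-24370262, plus strand): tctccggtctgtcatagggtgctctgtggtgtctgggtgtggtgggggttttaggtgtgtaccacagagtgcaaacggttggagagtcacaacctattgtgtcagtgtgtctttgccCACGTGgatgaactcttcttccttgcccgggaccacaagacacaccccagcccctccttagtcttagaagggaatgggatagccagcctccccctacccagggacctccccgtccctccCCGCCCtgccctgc
Kcnj12 (chr11:61065554-61065803, plus strand): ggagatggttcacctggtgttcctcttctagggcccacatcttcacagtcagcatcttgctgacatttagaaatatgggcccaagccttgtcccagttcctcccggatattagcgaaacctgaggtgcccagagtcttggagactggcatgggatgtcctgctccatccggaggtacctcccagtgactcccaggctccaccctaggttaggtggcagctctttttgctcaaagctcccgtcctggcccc
Kcnip1 (chr11:33993194-33993443, minus strand): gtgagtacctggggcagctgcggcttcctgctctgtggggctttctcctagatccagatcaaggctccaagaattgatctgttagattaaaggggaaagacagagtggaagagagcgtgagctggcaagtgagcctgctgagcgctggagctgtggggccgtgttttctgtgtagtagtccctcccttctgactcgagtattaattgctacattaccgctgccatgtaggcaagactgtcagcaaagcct
The window of *Kcnn4* held CACGTG beginning 133 bases before the start, a hexamer in 6.04% of the 32536 windows of this length, and GGGCGG (on the other strand) beginning 14 bases before it, present in 33% of windows. The windows printed for *Kcnj12* and *Kcnip1* held none of these letters. That of *Kcnj12* lies inside the gene's span of 61022564 to 61071131, so the bases before position 61022564 were not searched. Of the other windows of *Kcnip1*, the one at chr11:33843687-33843936 held a GC box beginning 99 bases before its start.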

How the data were processed

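RNA of 6 YUMM3.3 tumors was measured by paired-end bulk RNA sequencing. The table the authors deposited holds read counts of each gene and tumor with no normalization. The submitters' processing notes name cutadapt 1.18, FastQC 0.11.7, STAR 2.7.1a, featureCounts 1.6.4 and the mm10 build, while annotation, strand setting and handling of multi-mapping reads are not given in the sources used here. Without strand, a gene and its antisense partner could share reads. Of the 93 members, 90 had the same position in GENCODE M21.

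Groups came from the sample titles. Genes with a median count of at least 5 in a group (15355) were scaled by TMM and compared by the quasi-likelihood test of edgeR 4.0.16 (R 4.3.3), two-sided, with Benjamini-Hochberg adjustment over all of them. Standard errors were obtained by dividing log2 fold changes by the square root of F. RPKM values use the table's gene lengths. Single values had no permutation test, since 3 against 3 tumors cannot give a two-sided p below 0.1. Between replicates chi-square per degree of freedom was 19.6 or more, and the p-values measure the spread between these tumors. Alternatives were DESeq2 1.42.0, other scaling, filters and dispersions, thinned counts, abundant genes left out, each tumor left out and a limit of 1 on the absolute log2 fold change. The fit was also run on counts simulated from its own mean levels and dispersions. Such counts follow the model by design, so that run cannot check the model. Some genes and a sequence are not reported here. Members, classes and lists were chosen with earlier results of these data known. Named were members over 3 counts, with values per tumor for members past the threshold, at the floor in a group, or highest in their class, and up to 3 genes per direction of each other list, as far as these are reported here. Other members' values per tumor, *Atp1b3* and the genes named within marker sums were added after their values were seen.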

Additional observations from a re-analysis of the deposited data

How the results depend on the processing

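No paired analysis was possible because the groups share no replicate number. Against 6 higher and 3 lower members, DESeq2 gave 10 higher, filterByExpr, which left 23 members to test, gave 3 higher, counts thinned to the smallest library gave 1 lower, and the added limit of a log2 fold change of 1 left 4 higher and 2 lower. With each tumor left out the counts were 2 to 4 higher (3 without vehicle 7, 2 without vehicle 8 or 9) and 1 to 4 lower (1 without vehicle 7 or 8), with 1 sample fewer in a group. Partners went from 1 higher to 0 with library size only, 0 with that limit, and 0 to 1 with a tumor left out. Pumps and cotransporters went from 4 higher to 2 with library size only and 2 with that limit, and from 1 lower to 2 with library size only, 2 with DESeq2 and 1 to 2 with a tumor left out. Calcium and sodium channels went from 2 higher to 1 with library size only, 1 with thinned counts and 1 to 2 with a tumor left out. Where no cause is given, it was not tested. Library size only moved the median log2 fold change of all tested genes from -0.05 to -0.19 and their calls from 2503 higher and 2533 lower to 1870 and 3152, and changed the direction of no tested member. Among members without a call, leaving out a tumor turned the sign of *Kcnab3* (range -0.02 to 0.42, turned without RGS 10), *Kcnd1* (-0.44 to 0.13, and 0.02 without RGS 10; turned without vehicle 9 or RGS 10), *Kcnf1* (-0.0025 to 0.71, without RGS 11), *Kcnk13* (-1.16 to 0.91, and -0.02 without vehicle 9; turned without vehicle 9 or RGS 10) and *Kcnk4* (-2.44 to 0.03, without vehicle 8). Of 121 alternative fits of called members, 82 kept the call and 39 lost it, with the same direction in all. Some low members could not be fitted under stricter filters. Depth limits members under 0.226 CPM.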

Other observations

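The table also held 4 antisense transcripts with Kcn names, which are not channel subunits. *Kcnq1ot1*, the long noncoding RNA transcribed opposite *Kcnq1* and known for imprinting of its domain, was at 5.02, 4.99 and 9.54 CPM in vehicle and 19.5, 19.3 and 29.3 CPM in RGS tumors. All RGS tumors were above all vehicle tumors (log2 fold change 1.80, standard error 0.31, adjusted p = 2.05e-04 by edgeR, 3.49-fold). *Kcnd3os*, *Kcnmb4os2* and *Kcnab3os* had at most 1 count in all.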
